A study of Mus musculus with 8 samples.

Results

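The 10 genes described here are ones that cells are known to switch on when oxygen is short, and that are not enzymes of glycolysis. They were followed in primary mouse ependymal cultures and are Stc1, Stc2, Ankrd37, Fam162a, Zfp395, Gys1, Bhlhe40, Mif, Ndrg1 and Plod2. They are 10 of the 30738 genes measured. The genes were chosen by their symbols with the log2 difference between EGF and untreated arrays already known, so their values in that comparison are a description, and no p-value is given for them. Each had 1 transcript cluster of its own on the array, and all 10 were measured.

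Cells respond to low oxygen mainly through the hypoxia-inducible factors (HIF). With oxygen present, prolyl hydroxylases mark the HIF alpha subunit, the von Hippel-Lindau protein (VHL) binds it within a cullin ubiquitin ligase, and it is degraded. When the mark is missing, HIF alpha pairs with Arnt and binds hypoxia response elements, short stretches built around the letters ACGTG or GCGTG. Growth factor signalling is also known to raise HIF target genes in some cells. Outside glycolysis these targets include secreted hormones, transcriptional repressors, a glycogen enzyme, a collagen enzyme and mitochondrial proteins.

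RNA was measured on 8 arrays of primary cultures in which radial glial progenitors were grown into ependymal cells, the multiciliated lining of the brain ventricles. By their titles, 4 samples were untreated and 4 received epidermal growth factor (EGF). Other labels place the untreated samples in medium with serum alone and give EGF at 20 ng/ml once the differentiation medium was added. Cultures were grown for 2 weeks. The descriptions and the treatment protocol name EGF as well. The source names alone give the untreated samples as DMSO and the EGF samples as MLN4924. MLN4924 inhibits the enzyme that activates NEDD8, which cullin ligases, that of VHL among them, need for their work. The labels thus disagree on the agent, and EGF and MLN4924 cannot be told apart from them, and "EGF" below means the arrays with that title. Strain, age and number of animals are not stated, nor is it said that replicates came from separate cultures, so p-values measure only the spread between these samples.

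Across all genes, 60.3% passed the test in limma (adjusted p under 0.05), 39.7% with a rise and 20.7% with a fall, and the median log2 difference was 0.17. Array medians were 4.56 to 4.60 in the untreated group and 4.71 to 4.82 in the EGF group. Markers of cell types differed widely between the groups. Of 17 ependymal markers 17 fell, and their summed linear signal went from 74350 to 112426 on the untreated arrays to 969 to 1041 on the EGF arrays, so the labelled cell type was borne out by its markers on the untreated arrays and not on the EGF arrays. Of 14 microglial markers 13 fell (97408 to 178435 untreated, 2057 to 4016 EGF) and of 14 neuroblast and neuron markers 12 fell (12938 to 19060 and 3614 to 3981). Of 12 fibroblast and mural markers 9 fell and 2 rose (176083 to 232388 and 123259 to 136813). Of 12 astrocyte markers 10 rose and 2 fell (136305 to 148589 and 226421 to 268157). Of 10 endothelial markers 4 rose and 3 fell (3555 to 6410 and 505 to 540), and 5 lay below every array median in both groups. That sum was mostly Slco1a4 (12.11 untreated, 6.90 with EGF on the log2 scale), and the other 9 endothelial markers summed to 286 to 341 and 393 to 405. Single bright genes weighed on other sums too. Lyz2 (16.82 untreated, 10.94 with EGF) made up most of the microglial sum. On the untreated arrays Acta2 (17.32) made up most of the fibroblast and mural sum, and Gfap (16.59) most of the astrocyte sum. These sums are thus not levels of every gene of a list. Array signals have no true 0. The part of these shifts in the results below was not tested, and in such bulk samples fewer cells of a type and less RNA per cell cannot be told apart.

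The promoter windows of 3 of the genes hold the letters ACGTG, the core of the hypoxia response element with A at its start, and are shown because these genes lay among those with higher signals on the EGF arrays. Windows run from 250 bases before the start site to 50 after it and come from RefSeq, build GRCm38.p6. Windows were matched for Ankrd37, Fam162a, Mif, Stc2 and Gys1, and not for Stc1, Zfp395, Bhlhe40, Ndrg1 and Plod2. Capitals mark ACGTG on either strand, so a match on the opposite strand reads CACGT. The Ankrd37 window is chr8:45999801-46000100, that of Fam162a chr16:36071512-36071811 and that of Mif chr10:75860228-75860527, all read from the minus strand, 5′ to 3′.
Ankrd37: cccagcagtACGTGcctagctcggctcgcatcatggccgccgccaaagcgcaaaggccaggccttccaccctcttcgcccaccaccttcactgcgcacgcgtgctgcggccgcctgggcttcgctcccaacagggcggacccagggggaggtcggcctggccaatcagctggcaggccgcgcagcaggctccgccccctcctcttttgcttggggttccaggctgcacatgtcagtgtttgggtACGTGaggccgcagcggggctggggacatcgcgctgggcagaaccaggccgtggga
Fam162a: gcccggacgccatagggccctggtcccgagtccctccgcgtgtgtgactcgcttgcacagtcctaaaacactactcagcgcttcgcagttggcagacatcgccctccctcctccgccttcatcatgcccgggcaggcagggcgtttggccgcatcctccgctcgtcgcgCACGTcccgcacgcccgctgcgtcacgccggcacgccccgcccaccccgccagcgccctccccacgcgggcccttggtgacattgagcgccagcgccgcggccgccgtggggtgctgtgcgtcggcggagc
Mif: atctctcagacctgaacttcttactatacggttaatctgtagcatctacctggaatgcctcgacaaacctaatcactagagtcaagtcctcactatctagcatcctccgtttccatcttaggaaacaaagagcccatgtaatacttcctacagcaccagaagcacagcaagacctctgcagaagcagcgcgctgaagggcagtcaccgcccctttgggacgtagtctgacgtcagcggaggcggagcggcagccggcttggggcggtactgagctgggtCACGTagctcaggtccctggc
In Ankrd37 the matches begin at positions -241 and -6 from the start site, both on the strand of the gene. In Fam162a the match begins at -81 and in Mif at 30, within the transcribed part, both on the opposite strand. The second form, GCGTG, was searched on both strands too. It was found at 2 places in the Ankrd37 window, which overlap each other, at 5 in that of Fam162a and at 2 in that of Stc2. The Gys1 window held neither form. Among all 32851 promoter windows, 19.6% held ACGTG, 32.4% held GCGTG and 43.8% held either. In the 22256 windows of genes measured here the shares were higher, 21.05%, 37.9% and 49.0%. Of the 69 windows of 49 genes of a wider hypoxia-inducible list, 47.8% held ACGTG, 63.8% held GCGTG and 76.8% held either. These are matches of letters and not binding sites.

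The secreted factors were higher on the EGF arrays. Stc2, a stanniocalcin, a glycoprotein hormone that in human cells blocks the protease pappalysin, had log2 signals of 5.74, 5.74, 5.80 and 5.95 on untreated arrays 1 to 4 and of 9.84, 9.97, 9.69 and 10 on EGF arrays 1 to 4. All EGF arrays lay above all untreated arrays, with a gap of 3.74 between the groups, and the log2 difference was 4.07 ± 0.09 (SE), a 16.8-fold signal. This was the largest difference of the 10 genes. Its relative Stc1 gave 7.09, 7.50, 7.66 and 7.53 untreated and 10.05, 9.65, 9.62 and 9.72 with EGF. The groups lay apart here too, with a log2 difference of 2.31 ± 0.13 (SE), while untreated array 1 was the lowest of its group and EGF array 1 the highest of its own.

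Mif, macrophage migration inhibitory factor, a cytokine with tautomerase activity that most cells store, was already bright without EGF. Its log2 signals were 13.76, 13.93, 13.88 and 13.89 untreated and 16.54, 16.64, 16.36 and 16.55 with EGF. The groups were 2.43 apart at their closest, and the difference of the means was 2.66 ± 0.08 (SE), a 6.31-fold signal. The RefSeq table lists 3 pseudogenes named after Mif, and whether they add to its signal was not tested.

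**Figure D1:**
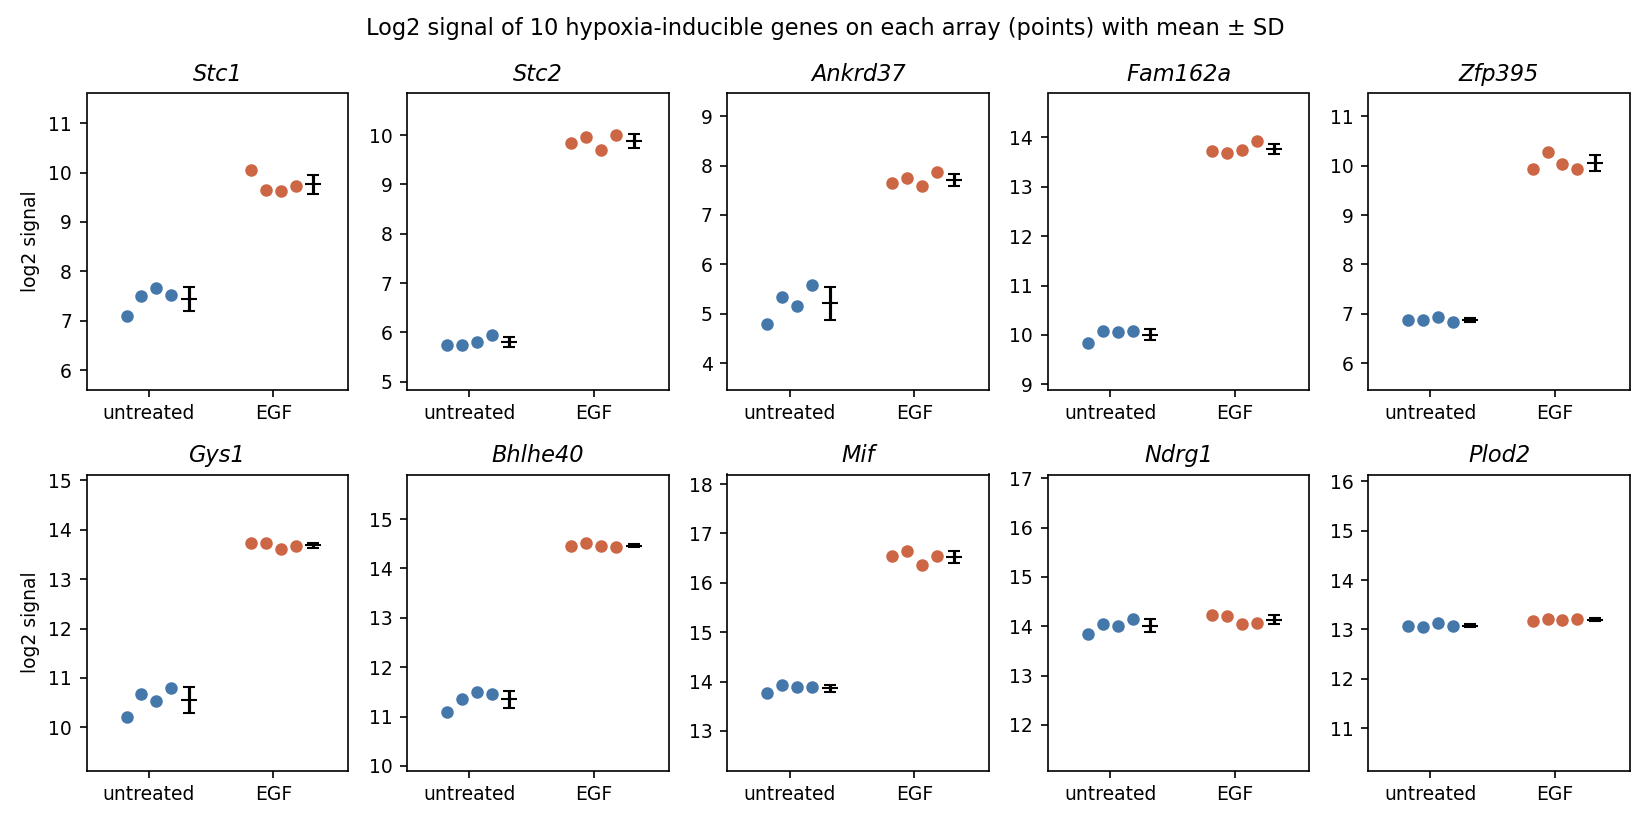
Log2 signal (vertical axis, the same span of units in each panel but different starting values) of each of the 10 genes on the 4 untreated and 4 EGF arrays, one point per array, with mean ± SD beside them. In 8 panels the groups lie far apart, from Stc1 (2.31 between means) to Stc2 (4.07), while in those of Ndrg1 and Plod2 they lie close together (0.12 each).

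The transcriptional regulators Bhlhe40 and Zfp395 differed by nearly the same amount. Bhlhe40, a basic helix-loop-helix repressor that acts on clock genes and on differentiation, gave 11.10, 11.35, 11.49 and 11.45 untreated and 14.45, 14.51, 14.45 and 14.43 with EGF. The EGF arrays spanned only 0.08 and the untreated ones 0.39, and the log2 difference was 3.11 ± 0.09 (SE). Zfp395, a zinc finger protein whose human counterpart is induced by hypoxia, showed the opposite order of spreads. Its signals were 6.87, 6.87, 6.93 and 6.84 untreated, a span of 0.09, and 9.94, 10.28, 10.04 and 9.94 with EGF, a span of 0.34. The difference was 3.17 ± 0.08 (SE), a 9.02-fold signal.

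Gys1, the glycogen synthase of muscle and brain, which adds glucose to glycogen chains, gave 10.20, 10.67, 10.54 and 10.80 untreated and 13.73, 13.73, 13.62 and 13.68 with EGF. The lowest EGF array was 2.82 above the highest untreated one, and the log2 difference was 3.14 ± 0.12 (SE), an 8.80-fold signal. Fam162a encodes a mitochondrial protein known in human cells as a pro-apoptotic HIF target. Its signals were 9.84, 10.07, 10.05 and 10.07 untreated and 13.73, 13.69, 13.75 and 13.92 with EGF. The difference of 3.76 ± 0.08 (SE), a 13.6-fold signal, was the second of the 10 genes in size. Ankrd37, an ankyrin repeat protein, gave 4.79, 5.33, 5.15 and 5.58 untreated and 7.64, 7.74, 7.58 and 7.87 with EGF. Its untreated arrays had the widest span of all (0.79), near the array medians, and the difference was 2.50 ± 0.15 (SE). A difference that starts so close to the median of the array can be understated.

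Ndrg1 and Plod2, both widely listed as HIF targets, hardly differed between the groups. Ndrg1, a stress-responsive cytoplasmic protein that is repressed by Myc, gave 13.85, 14.04, 14.01 and 14.15 untreated and 14.22, 14.21, 14.04 and 14.07 with EGF. The groups overlapped, and the difference was 0.12 ± 0.08 (SE). Plod2, the lysyl hydroxylase that prepares collagen ends for crosslinks, gave 13.07, 13.05, 13.13 and 13.06 untreated and 13.17, 13.22, 13.18 and 13.22 with EGF. Its groups did not overlap, with a gap of 0.04, and the difference was 0.12 ± 0.05 (SE). Both values lay under the median of all genes, 0.17, and turned their sign with the scaling: Ndrg1 was at -0.14 after a further quantile normalization and -0.06 after median centring, and Plod2 at -0.0031 and -0.07.

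In the test across all genes 8 of the 10 passed with a higher EGF signal and 2 did not pass, beside 39.7% of all genes that rose. At least 2-fold, the count was the same 8, beside 6.25% of all genes. All EGF arrays lay above all untreated arrays in 9, beside 34.0% of all genes. These counts restate the choice of the genes and carry no support. The median difference over the 10 genes was 2.89, and 2.70 after centring on the median. For the 8 genes with higher EGF signals the difference stayed beyond 2 over 14 alternatives, 3 of which were other scalings. The difference of Stc2 ran from 3.88 to 4.13, that of Fam162a from 3.58 to 3.79 and that of Stc1 from 2.13 to 2.39. For these genes the lower ends came from centring on the median and the upper ends from leaving out 1 array. Untreated array 1 was the lowest of its group in 8 of the 10 genes, for Stc2 in a tie with untreated array 2, and above the group mean in 0. EGF array 3 was the lowest in 6. These positions were not set against those of all genes.

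**Figure D2:**
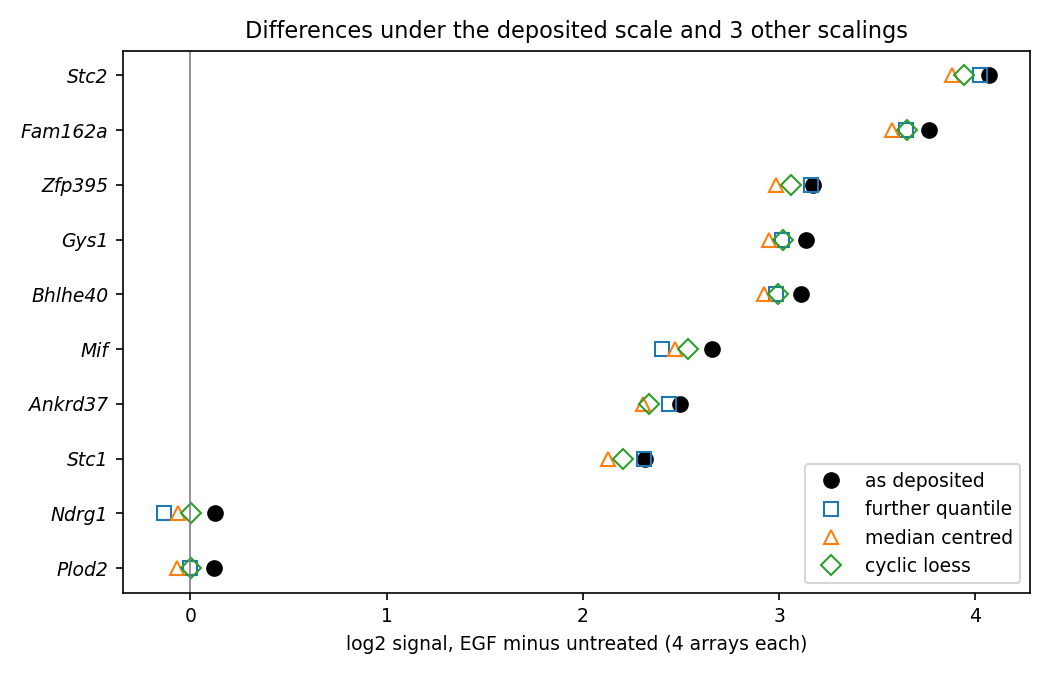
Difference in log2 signal between the EGF and untreated groups (horizontal axis, means of 4 arrays each) for the 10 genes (rows) under the deposited scale and 3 other scalings. The 8 upper genes stay beyond 2 under all 4, and Ndrg1 and Plod2 lie on both sides of 0.

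For 6 of the 10 genes, relatives that were not among those chosen were listed and measured, and they set the values in context. The list was drawn up by name and is not a search of the array for every relative. Of these 8 relatives 6 rose and 2 fell in limma (75% and 25%, beside 39.7% and 20.7% of all genes), with a median of 0.48, beside 0.17. After centring on the median 4 of the 8 rose, beside 5741 of all 30738 genes. Bhlhe41, the closest relative of Bhlhe40 and also a repressor, rose by 3.05 ± 0.07 (SE; adjusted p = 4.8e-10), from signals of 8.79 ± 0.06 to 11.84 ± 0.11 (SD, n = 4). Gys2, the glycogen synthase of liver, rose by 0.24 ± 0.06, a dim gene that lay below every array median in both groups, and that passed under 1 of 4 scalings. Ddt, D-dopachrome tautomerase and the relative of Mif, fell by 1.45 ± 0.10 (adjusted p = 7.1e-07). Zfp704, related to Zfp395, fell by 1.05 ± 0.12 (adjusted p = 4.2e-05). So Mif and Zfp395 lay on the other side of 0 from their relatives, each with groups that did not overlap.

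The measured relatives of the pair that hardly differed rose. Plod3, also a relative of Plod2, had no cluster with that single name and was not measured. Plod1, another lysyl hydroxylase, rose by 0.65 ± 0.08 (adjusted p = 5.4e-05). Ndrg2, an astrocyte gene of the same family as Ndrg1, rose by 1.00 ± 0.09 (adjusted p = 3.5e-06), Ndrg4 by 0.64 ± 0.07 (adjusted p = 1.5e-05) and Ndrg3 by 0.32 ± 0.09 (adjusted p = 0.00914), all in limma. Ndrg3 passed under 3 of 4 scalings and was at 0.13 after centring on the median. Whether these differ from the values of Ndrg1 and Plod2 was not tested.

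**Figure D3:**
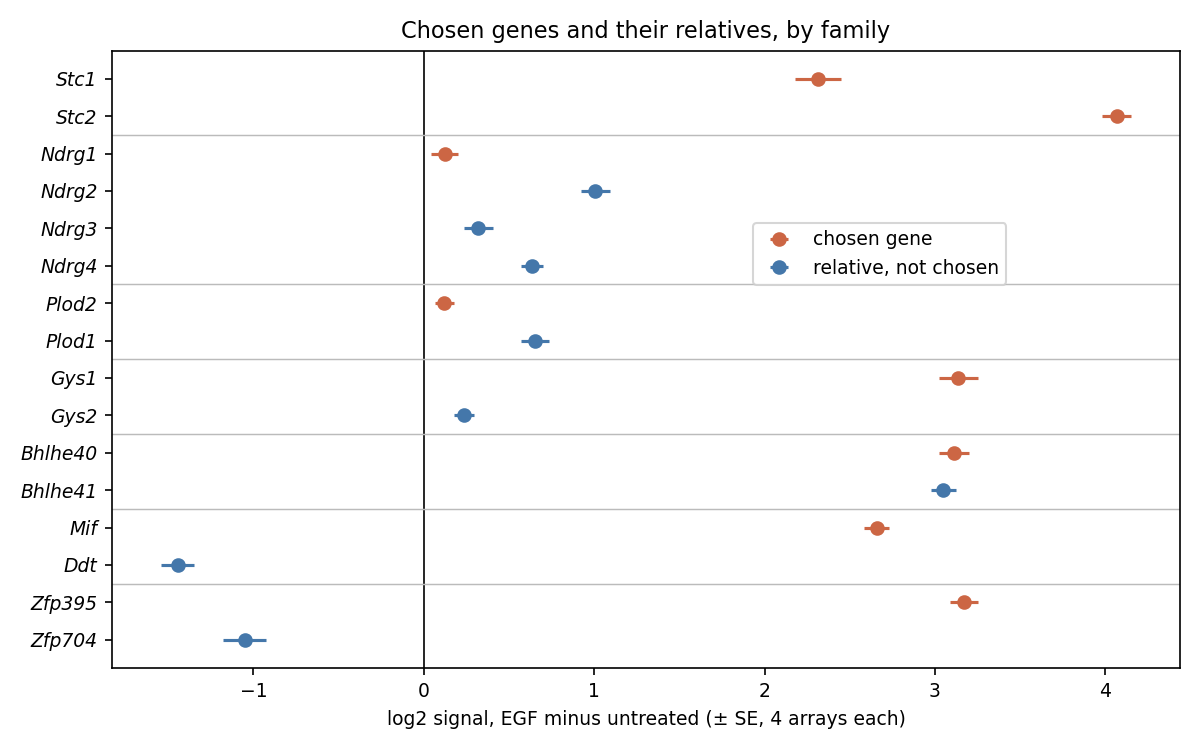
Difference in log2 signal between EGF and untreated arrays (horizontal axis, ± SE, 4 arrays each) for the chosen genes and their relatives, with lines between families. Bhlhe40 (3.11) and Bhlhe41 (3.05) lie together, while Mif (2.66) and Ddt (-1.45) lie on opposite sides of 0.

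Most genes of a wider list of hypoxia-inducible genes rose. The list was chosen with earlier results of these data known, so its counts describe the list and not such genes at large. Its 60 measured genes held 46 rises, 11 falls and 3 genes that did not pass in limma. That is 76.7% rising, beside 39.7% of all genes, and a median log2 difference of 1.54, beside 0.17. At least 2-fold, 36 rose and 7 fell, beside 6.25% and 7.42% of all genes. The 4 largest changes were of Vegfa, the main angiogenic factor (6.65 ± 0.17), Apln, a peptide hormone of vessels (5.90 ± 0.15), the glucose transporter Slc2a3 (5.71 ± 0.06) and Ero1a, an oxidase of the endoplasmic reticulum (5.69 ± 0.22), all higher (SE; adjusted p of 1.2e-08 or less). The falls, named here after their values were seen, were led by Angptl4, a lipase inhibitor (-4.94 ± 0.15), Lox, the collagen crosslinking oxidase (-3.01 ± 0.27), and the chemokine receptor Cxcr4 (-2.76 ± 0.13). Under 3 other scalings 45 genes rose, with medians of 1.52, 1.35 and 1.41. These scalings were a further quantile normalization, median centring and cyclic loess, under which 7271, 5741 and 6326 of all genes rose.

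**Figure D4:**
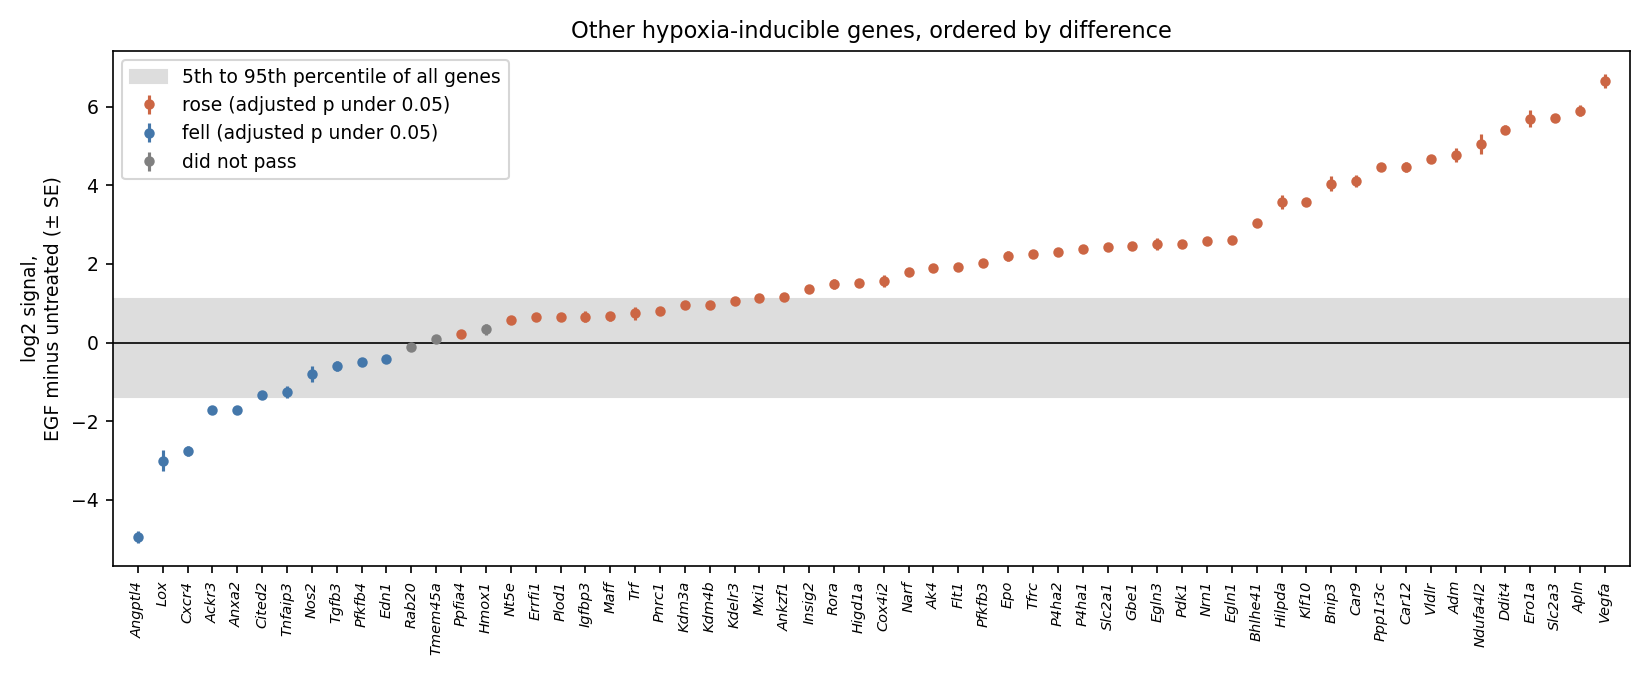
Difference in log2 signal between EGF and untreated arrays (vertical axis, ± SE, 4 arrays each) for 60 other hypoxia-inducible genes, ordered by size, with the grey band holding the 5th to 95th percentile of all genes (-1.40 to 1.12). The row runs from Angptl4 at -4.94 to Vegfa at 6.65, and 46 genes rose.

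On the deposited scale the genes of HIF itself and of oxygen sensing held equal numbers of rises and falls. Among 15 genes, 5 rose, 5 fell and 5 did not pass, which is 33.3% in each direction beside 39.7% and 20.7% of all genes. Their median was 0.05, under the 0.17 of all genes. The 4 largest changes were those of Egln1 and Egln3, prolyl hydroxylases that mark HIF alpha and are themselves HIF targets (2.61 ± 0.07 and 2.51 ± 0.15, SE), of Hif1a (-0.72 ± 0.07, adjusted p = 9.0e-06) and of Arnt2, a brain partner of HIF alpha (-0.67 ± 0.11, adjusted p = 3.7e-04). Centring on the median left 3 genes that rose and 7 that fell, beside 5741 and 8540 of all 30738 genes. After cyclic loess 4 rose and 6 fell, and after a further quantile normalization 4 rose and 5 fell. The median of the 15 genes was -0.13 after centring and -0.04 after cyclic loess. Hif3a, among the 5 rises on the deposited scale, lay below every array median in both groups and passed under 1 of 4 scalings.

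Around Gys1, the genes of glycogen metabolism were mixed. Among 25 genes, 16 rose, 6 fell and 3 did not pass (64.0% rising and 24.0% falling, beside 39.7% and 20.7% of all genes). The median was 0.26, beside 0.17. After centring on the median 9 of the 25 rose, beside 5741 of all 30738 genes. Ppp1r3c, a subunit that brings a phosphatase to glycogen and activates the synthase, rose from 10.28 ± 0.11 to 14.73 ± 0.17 (SD, n = 4; adjusted p = 2.6e-10). Pgm1, which interconverts glucose phosphates, rose by 3.46 ± 0.07, and Gbe1, the branching enzyme, by 2.45 ± 0.07 (SE). Phkg1, a catalytic subunit of phosphorylase kinase, which starts glycogen breakdown, fell by 2.74 ± 0.08 (adjusted p = 2.5e-09).

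Around Plod2, the enzymes that modify collagen also split. Among 22 genes, 14 rose and 8 fell (63.6% and 36.4%, beside 39.7% and 20.7% of all genes), with a median of 0.60, beside 0.17. P4ha1 and P4ha2, catalytic subunits of the collagen prolyl hydroxylase, rose by 2.37 ± 0.06 and 2.31 ± 0.08 (SE), while the third such subunit, P4ha3, fell by 4.35 ± 0.13 (adjusted p = 2.1e-09). Lox fell by 3.01 ± 0.27. Of 12 fibroblast and mural markers 9 fell and 2 rose beside these genes, and their part in the falls was not tested.

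The measured partners of Mif were mostly lower. Cd74, also on this list of receptors and partners, had no cluster with that single name and was not measured. Of 5 genes for receptors and binding partners of Mif 4 fell, 0 rose and 1 did not pass (80.0% falling, beside 20.7% of all genes; median -0.73, beside 0.17). Cxcr4 fell by 2.76 ± 0.13, Ackr3 by 1.71 ± 0.11, Cops5, an intracellular partner, by 0.73 ± 0.07 and Cd44, part of the receptor, by 0.33 ± 0.08 (SE; adjusted p of 0.00417 or less), and Cxcr2 was at -0.17 ± 0.08 (adjusted p = 0.0853). Of 14 microglial markers 13 fell beside them.

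Of 8 genes of the pappalysin and IGF step on which stanniocalcins act 4 rose, 3 fell and 1 did not pass (50% rising and 37.5% falling, beside 39.7% and 20.7% of all genes; median 0.40, beside 0.17). The protease Pappa itself was at 0.13 ± 0.07 (SE; adjusted p = 0.132), with a sign that turned with the scaling. Its substrate Igfbp4 rose by 3.90 ± 0.12 (adjusted p = 1.8e-09), and Igfbp5, also a substrate, fell by 0.86 ± 0.14 (adjusted p = 3.8e-04). Igfbp2 rose by 1.33 ± 0.15, Igfbp3 by 0.66 ± 0.14 and the receptor Igf1r by 1.63 ± 0.09. The ligands Igf1 and Igf2 fell by 3.23 ± 0.16 and 0.93 ± 0.22.

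Around Bhlhe40, which represses clock genes, most genes of the circadian clock rose. Among the 18 on the array there were 15 rises, 1 fall and 2 genes that did not pass (83.3% rising, beside 39.7% of all genes; median 0.94). The clock repressor Nr1d1 rose from 9.36 ± 0.13 to 12.54 ± 0.15 (SD, n = 4; adjusted p = 1.8e-09), Per1, a period gene, by 2.77 ± 0.09, Ciart by 2.68 ± 0.08 and Dbp, a clock output factor, by 2.28 ± 0.10 (SE). Clock, the activator and the sole gene of the list that fell, was lower by 0.75 ± 0.07 (adjusted p = 4.2e-06), and was named after its value was seen. The labels give no hour of harvest.

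**Figure D5:**
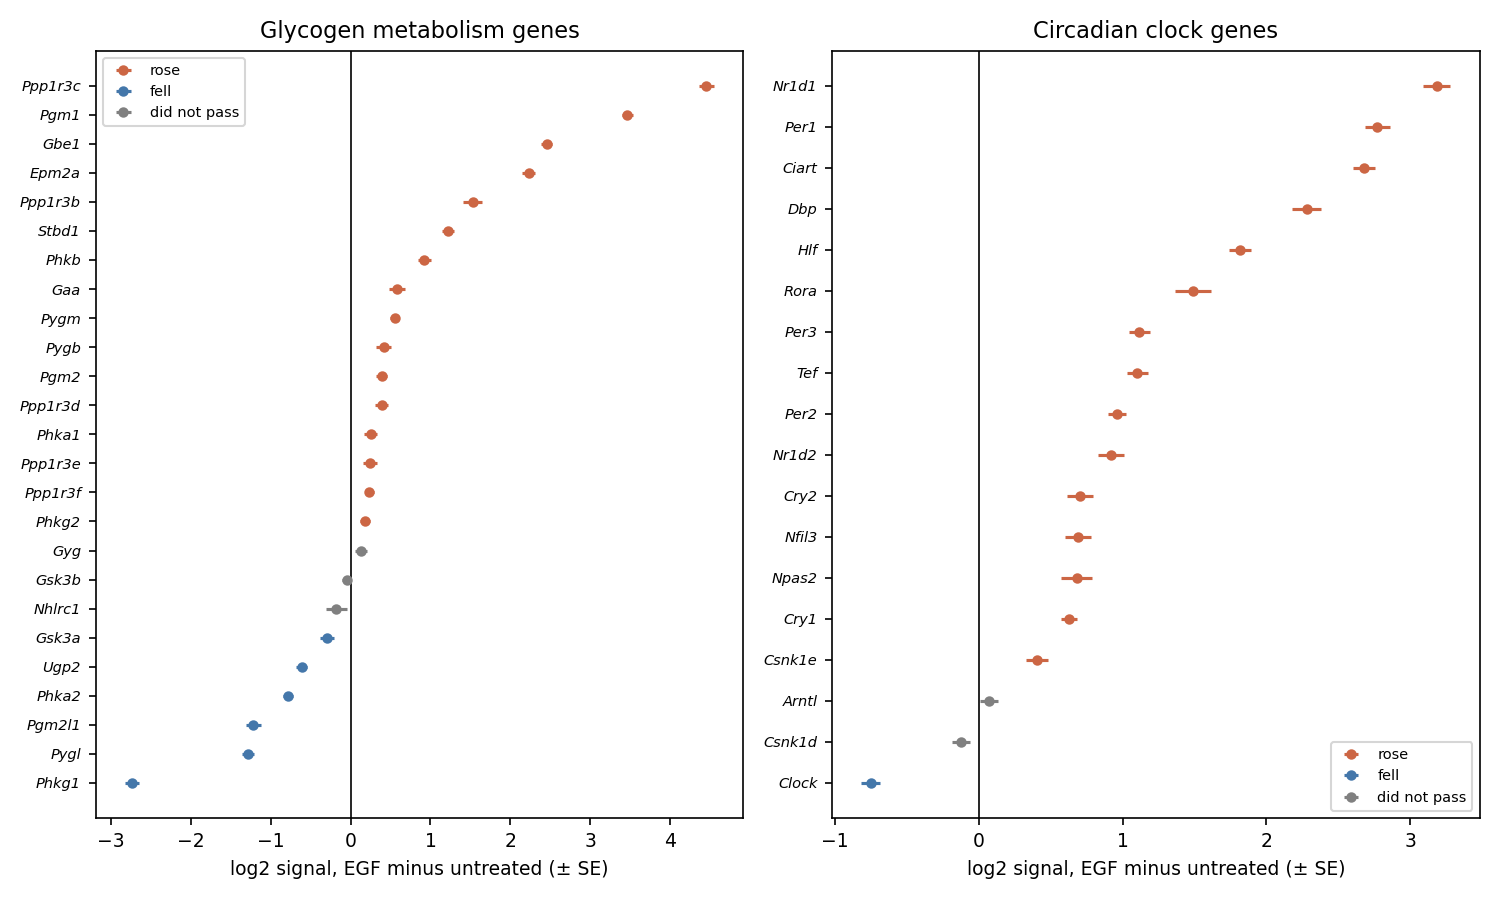
Difference in log2 signal between EGF and untreated arrays (horizontal axes, ± SE, 4 arrays each) for 25 genes of glycogen metabolism and 18 of the circadian clock. Ppp1r3c (4.45) and Nr1d1 (3.19) lead the 2 panels, and Phkg1 (-2.74) and Clock (-0.75) are lowest.

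Of 8 genes known to act on Ndrg1 3 rose, 2 fell and 3 did not pass (median 0.0012, beside 0.17). The shares of 37.5% rising and 25% falling lay near the 39.7% and 20.7% of all genes. Myc, its repressor, fell by 1.29 ± 0.13 (SE; adjusted p = 1.1e-05) and Sgk1, a kinase that phosphorylates the protein, by 0.94 ± 0.08 (adjusted p = 3.5e-06). Egr1, an immediate early factor, rose by 3.65 ± 0.10 and Sp1 by 1.11 ± 0.07, and the third rise was of the dim gene Sgk2 (0.20 ± 0.07, adjusted p = 0.0371), whose sign turned with the scaling. Mycn was at -0.12 ± 0.07, Gsk3b at -0.05 ± 0.06 and Sgk3 at 0.05 ± 0.06, none of which passed.

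The 5 genes whose profile over the 8 arrays was most like the mean profile of the 10 genes were Vldlr, Bsg, Pgk1, Ddit4 and Zbtb7b, with Pearson's r of 0.9995 to 0.9997. Of 11781 genes compared, 646 had an r of at least 0.99, since the group difference sets most of each profile. Vldlr, a lipoprotein receptor, was at 8.17 ± 0.20 untreated and 12.83 ± 0.06 with EGF (SD, n = 4), and Bsg, the partner of lactate transporters, at 15.97 ± 0.08 and 17.32 ± 0.03.

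The authors' deposited table of comparisons gives group averages named ctrl and gf for clusters with an absolute difference of at least 1, and 6 of the 10 genes are in it. Ankrd37, Zfp395, Ndrg1 and Plod2 are not listed in the authors' deposited table, although Ankrd37 and Zfp395 differed by 2.50 and 3.17 on the 8 arrays. A gene can be absent through its difference or its p-value, and which of these left them out is not stated. The labels do not say what gf stands for. In the authors' deposited table Stc1 was at 5.42 in ctrl and 8.43 in gf, and Stc2 at 5.67 and 7.17. The same deposited table of the authors gives 12.19 and 13.37 for Fam162a, 10.09 and 11.41 for Gys1, 10.91 and 12.91 for Bhlhe40, and 14.17 and 15.24 for Mif. All 6 were higher in gf, but in the authors' deposited table the difference of Stc2 was 1.5 and that of Stc1 3.01, the reverse of their order on the 8 arrays. The averages of the authors' deposited table are not those of the 8 arrays: its ctrl value lay within the range of the untreated arrays in 15.4% of 4136 clusters, and its gf value within that of the EGF arrays in 17.3%. Over these clusters ctrl had an r of 0.90 to 0.91 with the untreated arrays and of 0.73 with the EGF arrays. For gf the r was 0.91 to 0.92 with the EGF arrays and 0.79 to 0.82 with the untreated ones. The difference had the same sign in 85.0% of the clusters. Whether that table rests on other arrays or on other processing was not stated. Of the wider list 27 genes are in the authors' deposited table, 26 higher and 1 lower in gf, beside 37.8% of its rows that are higher in gf. Of the 26 that are higher in gf in the authors' deposited table, 22 rose on the 8 arrays, 3 did not pass and 1 fell. Named after their values were seen, the 3 were Rab20, Hmox1 and Tmem45a, higher in gf by 1.35, 1.69 and 1.58 in the authors' deposited table. The 1 was Tnfaip3, an inhibitor of inflammatory signalling, which was higher in gf by 1.24 in the authors' deposited table and fell by 1.25 on the 8 arrays (limma, adjusted p = 4.1e-05).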

How the data were processed

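The values used are log2 signals of transcript clusters as the authors deposited them; the submitters' processing notes list RMA, affy and limma and give no version or order. That the scale is log2 was read from the range of the values, and how the arrays were centred stays unknown. The direction is that of the sample titles. A second table holds group averages on the log2 scale, p-values and false discovery rates for ctrl against gf, made by the authors, per the file headers. The genome build behind the array is not stated.

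Of 65956 clusters 30638 had 1 gene symbol, 2176 several, of which 654 resolved to 1 gene and the rest were left out, and 33142 none. Names were updated through a RefSeq table of GRCm38.p6. Of several clusters of a gene (439 genes) the one with the highest mean was used, which gave 30738 genes. Log2 values were fitted as deposited with limma 3.58.1 (R 4.3.3; lmFit, eBayes, two-sided, Benjamini-Hochberg over all genes, threshold 0.05), without a filter or block. The steps were tested on simulated data. Standard errors are moderated ones from limma. Precision is limited by having 4 arrays in a group.

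The members and lists were chosen with earlier results of these data known. Lists are described by their counts and medians beside those of all genes, with no test of their own. Named genes are the 10 members, up to 4 genes of each list with the largest change among those that passed, every gene of lists of 10 or fewer, and the 5 genes of most similar profile among those with a mean of at least 6 in either group, clone and predicted names left out. Lists overlap in part. For 12 of the list genes no cluster with that single name was found, and they were not analysed here. Alternatives were a further quantile normalization, median centring, cyclic loess, a filter on dim genes (mean under 6 in both groups), the mean of a gene's clusters, eBayes with trend and robust, array weights, a replicate block, adjusted p under 0.01, treat at 1.5-fold and leaving out each array. Other software was Python 3.11.15 with numpy 2.4.6, matplotlib 3.10.9 and pandas 2.3.3.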

Additional observations from a re-analysis of the deposited data

Results flagged for a closer look

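Among 20 sets of 4 arrays (10 genes in each of the 2 groups), 1 held an array far from the others: Fam162a on untreated array 1 had a log2 signal of 9.84, while the other 3 untreated arrays lay between 10.05 and 10.07. The gap took a share of 0.913 of the range of the group. Chance flags about 1 in 20 such sets. Without that array the difference of Fam162a was 3.71 on the log2 scale, beside 3.76 with it.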

How the results depend on the processing

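Scaling moved the counts over all genes. With the deposited values 12198 genes rose and 6351 fell, and the number that rose was 7271 after a further quantile normalization, 5741 after centring on the median and 6326 after cyclic loess, so the rising share of the calls went from 65.8% to 48.8%, 40.2% and 43.0%. It was 6253 with brighter genes alone, 8012 at an adjusted p under 0.01 and 2504 with treat at 1.5-fold, where 2686 fell. The median of all genes, 0.17 as deposited, was 0.0083, -0.02 and -0.01 under the 3 scalings. Ndrg1 (-0.135 and -0.065) and Plod2 (-0.0031 and -0.0675) turned sign after quantile normalization and centring, so neither has a settled direction; the median of the 10 genes was 2.70 after centring. With treat at 1.5-fold the numbers that rose were 9 for collagen modification, 2 for the family relatives, 7 for glycogen metabolism and 2 for oxygen sensing, and those that fell were 4 for collagen modification, 0 for the clock, 0 for oxygen sensing, 2 for MIF reception, 1 for the pappalysin step and 7 for the wider hypoxia list; treat asks for a larger change by its construction. After centring 9 glycogen and 3 oxygen sensing genes rose, 2 clock genes fell (2 also after cyclic loess) and 4 NDRG1 regulators fell (4 also after quantile normalization). Leaving out each array in turn kept every count within 1.5 times: 10413 to 12470 genes rose, 6013 to 6281 fell, and 46 to 47 of the wider list rose.

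The replicate block gave 11335 genes that rose and 6102 that fell, and 47 of the wider list that rose. Same-numbered arrays did not deviate together: the correlations of their deviations from the group means were -0.08, -0.0032, -0.05 and -0.03. Between arrays of unlike number they ran from -0.17 to 0.17. With 4 arrays in a group such values cannot tell whether same-numbered arrays shared an origin. Dim genes such as Gys2, Sgk2 and Ankrd37 in the untreated group are limited by their signal over the array's floor, and the floor was not measured here.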
